A study of Mus musculus with 18 samples.

Results

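Streptozotocin (STZ) is a compound toxic to the beta cells of the pancreas and is used to make rodents diabetic. Its effect on the testis was compared here in mice that all received alginate oligosaccharide (AOS), short sugar chains made from the alginate of brown algae. The comparison uses 6 of the 18 testis RNA libraries of the series: 3 from mice given STZ and AOS at 10 mg/kg (STZ + AOS) and 3 from mice given AOS at 10 mg/kg without STZ (AOS). The libraries were chosen by their treatment labels alone, and all genes in the table were compared. Both groups were ICR mice, an outbred stock, at 10 weeks of age, so AOS, strain, tissue and age were shared. Libraries from mice given STZ without AOS (STZ) and from control mice, 3 each, served to set the effect of STZ under AOS beside that without AOS. A further 6 libraries came from STZ mice that received faecal transplants, 3 labelled STZ + AOS 10 mg/kg FMT and 3 labelled STZ + control FMT. These 6 entered the estimate of the spread, the filter on low values and the principal components, and no comparison. The labels do not give the dose of STZ, blood glucose, or whether a group's libraries stem from separate animals. The p-values therefore cover the spread between these samples only.

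The testis makes sperm in tubules, where germ cells divide, pass through meiosis and reshape into spermatids while held by Sertoli cells. Leydig cells between the tubules turn cholesterol into testosterone under the control of luteinizing hormone, and testosterone in turn acts on Sertoli cells. Diabetes in rodents is known to lower testosterone and sperm output and to raise oxidative and inflammatory markers in the testis.

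Levels are given in FPKM, that is, fragments per transcript length and library depth. The sum over all genes lay between 586486 and 603475 FPKM in the STZ + AOS libraries and between 604498 and 622169 FPKM in the AOS libraries. The number of reads is not known, but the size of the lowest values gave the 6 libraries relative depths between 1.001 and 1.024 of the average library. Replicates correlated at Pearson r of 0.993 to 0.994 in STZ + AOS and 0.994 to 0.995 in AOS, over genes of the log2 values. Of the 18 libraries, the 3 STZ libraries stood apart on the first principal component, at 26.2, 60.9 and 61.8, whereas the STZ + AOS libraries lay between −12.1 and −6.58, the AOS libraries between −16.2 and −12.0 and the control libraries between −10.1 and −7.97. Of the STZ libraries, replicate 1 was the closest to the rest. Markers of the testis were abundant in both groups. The protamine gene Prm1 averaged 13178 ± 620 FPKM in STZ + AOS and 15075 ± 732 FPKM in AOS (SD, n = 3 each), and the Leydig hormone gene Insl3 averaged 1988 ± 190 FPKM and 2465 ± 418 FPKM in the same order. The epididymal gene Lcn5 was listed at 0 in all 6 libraries, and the muscle actin gene Acta1 lay between 0.09 and 0.24 FPKM in STZ + AOS and between 0.1 and 0.14 FPKM in AOS.

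Few genes were called between STZ + AOS and AOS testes after adjustment, although many had small differences. Of 14164 genes tested, 2 were called at an adjusted p under 0.05 (0.0141% of the genes tested), 1 higher and 1 lower (0.00706% each), by limma on log2(FPKM + 1) with Benjamini-Hochberg adjustment. Thrsp, which encodes a nuclear protein that promotes fatty acid synthesis in liver and fat and responds to thyroid hormone and insulin, fell. Cyp2c55, which encodes a cytochrome P450 enzyme that oxidizes arachidonic acid, rose. At an unadjusted p under 0.05 there were 1781 genes (12.6%), of which 1186 were higher (8.37%) and 595 lower (4.2%). The 3 STZ + AOS libraries did not overlap the 3 AOS libraries for 3464 genes (24.5%), 2195 of them higher (15.5%) and 1269 lower (8.96%) in STZ + AOS. Differences were small: 14 genes were higher and 26 lower by at least 1 on the log2 scale, and the median log2 fold change over all genes was 0.03.

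Thrsp (chr7:97412938-97417730, minus strand, GRCm38) had 0.67, 0.40 and 0.40 FPKM in the STZ + AOS libraries, against 3.23, 5.92 and 2.53 FPKM in the AOS libraries. Every STZ + AOS library was under every AOS library, and AOS replicate 2 was the highest of all 18. On the log2(FPKM + 1) scale, which understates the change of low genes, the difference was −1.66 (SE 0.23, 95% interval −2.15 to −1.17, adjusted p = 0.036). Without AOS the gene had 0.58, 0.96 and 0.96 FPKM in STZ testes and 1.55, 1.41 and 2.23 FPKM in control testes, a log2 fold change of −0.57 (adjusted p = 0.048). The 2 effects differed by −1.09 (adjusted p = 0.018, test of the difference, or 0.055 after quantile normalization and 0.053 after median centring). The call under AOS was lost when any library other than AOS replicate 3 was left out, with adjusted p between 0.065 and 0.19 and log2 fold changes between −1.74 and −1.38, and with only the 6 libraries in the model (adjusted p = 0.069).

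Cyp2c55 (chr19:39007019-39042693, plus strand, GRCm38) had 12.45, 12.97 and 12.43 FPKM in the STZ + AOS libraries, against 9.94, 10.01 and 9.35 FPKM in the AOS libraries. The 2 groups did not overlap, and the difference was small, at 0.34 on the log2 scale (SE 0.05, 95% interval 0.23 to 0.45, adjusted p = 0.036), or 1.26-fold in FPKM + 1. Without AOS the order was the other way, with 10.62, 10.34 and 9.81 FPKM in STZ against 11.10, 11.07 and 11.38 FPKM in control libraries (log2 fold change −0.11, adjusted p = 0.063). The difference between the 2 effects was 0.45 (adjusted p = 0.00033). The call did not hold with only the 6 libraries in the model (adjusted p = 0.11), after quantile normalization (0.16) or median centring (0.13), or when any 1 of the 6 libraries was left out (0.065 to 0.31).

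The sequences before the start of the 2 called genes are shown because they are the genes the comparison turns on. Each is the 250 bases before the RefSeq start on the gene's strand, from the GRCm38.p6 promoter table of RefSeq, at chr7:97417551-97417800 for Thrsp and at chr19:39006769-39007018 for Cyp2c55. Capitals mark CCAAT (or ATTGG, its other strand) and TATAAA, searched on both strands, and no 2 matches overlap.
Thrsp promoter: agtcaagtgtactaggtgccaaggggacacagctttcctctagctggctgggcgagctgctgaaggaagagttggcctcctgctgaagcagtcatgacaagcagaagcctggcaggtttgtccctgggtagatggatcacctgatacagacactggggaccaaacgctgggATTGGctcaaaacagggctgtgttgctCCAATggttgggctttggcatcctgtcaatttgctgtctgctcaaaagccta
Cyp2c55 promoter: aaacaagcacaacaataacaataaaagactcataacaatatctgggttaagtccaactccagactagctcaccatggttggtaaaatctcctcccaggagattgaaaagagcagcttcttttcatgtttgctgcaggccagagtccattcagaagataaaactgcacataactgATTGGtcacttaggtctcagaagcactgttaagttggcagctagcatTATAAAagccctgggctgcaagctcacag
The start of Thrsp in the GENCODE annotation lies before its RefSeq start, so that most of this window, with both of its matches, lies inside the annotated gene. The Thrsp window held CCAAT at 79 and 52 bases before the start and no TATAAA. The Cyp2c55 window held CCAAT at 76 bases and TATAAA at 29 bases before the start. CCAAT was present in 33.8% and TATAAA in 12.4% of the 32851 mouse promoter windows of the same length, so both are common letters in such windows.

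The genes next in order of p did not pass the adjustment. Ifitm1, an interferon-induced membrane protein gene, had 5.22, 4.04 and 4.07 FPKM in STZ + AOS, against 2.95, 2.29 and 2.05 FPKM in AOS (log2 fold change 0.67, adjusted p = 0.10). Aplp1, a member of the amyloid precursor family, had 10.75, 9.96 and 9.53 FPKM against 5.84, 5.95 and 5.35 FPKM in the same order (0.72, adjusted p = 0.15). Ctgf, a matrix-associated growth factor gene, had 18.13, 27.81 and 16.16 FPKM against 8.61, 12.89 and 11.26 FPKM (0.84, adjusted p = 0.15). In each of these genes the 3 STZ + AOS libraries were all above the 3 AOS libraries, and each was called higher in STZ than in control testes, by 1.25, 2.16 and 1.42 on the log2 scale for Ifitm1, Aplp1 and Ctgf. Plekhd1 averaged 4.74 ± 0.22 FPKM in STZ + AOS and 2.99 ± 0.27 FPKM in AOS (log2 fold change 0.53, adjusted p = 0.15), and it stood out from the others in that its effect without AOS was 0.03 (test of the difference 0.49, adjusted p = 0.022).

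On the lower side, Tgfbr3l, which encodes an inhibin co-receptor of the mouse pituitary, had 3.98, 5.08 and 3.76 FPKM in STZ + AOS, against 8.24, 6.71 and 7.73 FPKM in AOS (log2 fold change −0.70, adjusted p = 0.10, or 0.049 after median centring). Nrep, first described in regenerating neurons, had 1.18, 1.05 and 1.08 FPKM against 1.86, 1.78 and 2.05 FPKM in the same order (−0.46, adjusted p = 0.10). Ccr4, a chemokine receptor gene, had 0.76, 0.62 and 1.04 FPKM against 1.77, 1.94 and 2.53 FPKM (−0.77, adjusted p = 0.12). The groups did not overlap for any of the 3 genes. Tgfbr3l and Nrep differed from their effects without AOS, which were −0.18 and 0.07 (tests of the difference −0.52, adjusted p = 0.027, and −0.53, adjusted p = 0.003). Neither difference passed after quantile normalization (adjusted p = 0.47 and 0.17) or median centring (0.29 and 0.15).

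**Figure D1:**
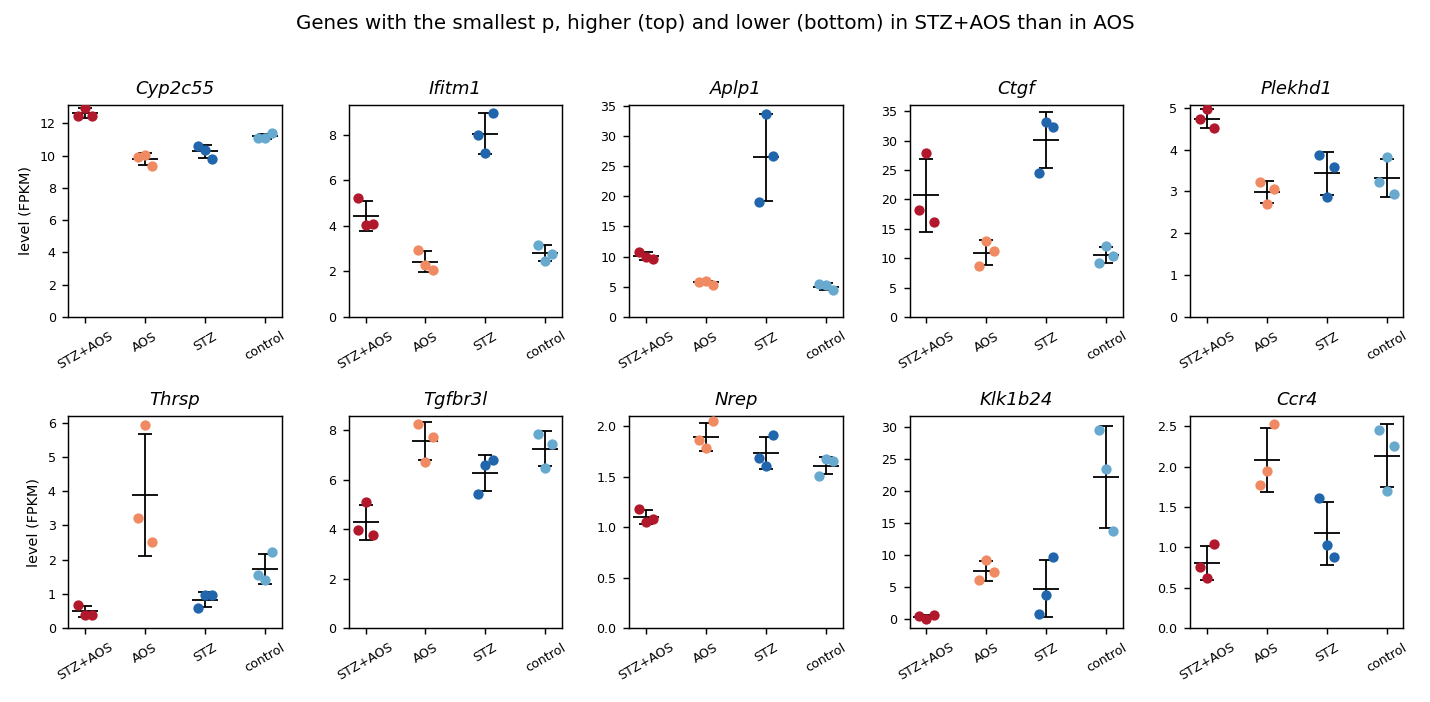
Levels in FPKM (y axes, linear) of the 5 genes of each direction with the smallest p, by group on the x axis. Points are libraries, and bars show the mean ± SD of 3. Thrsp and Cyp2c55 are the called genes, and in all 10 panels the STZ + AOS libraries do not overlap the AOS libraries. Klk1b24 lies at 0 to 0.53 FPKM in STZ + AOS and at 6.03 to 9.20 FPKM in AOS.

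With only the 6 libraries of the comparison in the model, 11 genes were called (0.0777%), 3 higher (0.0212%) and 8 lower (0.0565%), and neither Thrsp nor Cyp2c55 was among them. The 8 lower genes were Klk1b21, Klk1b24, Klk1b27, Bhmt, Gsta3, Btbd35f3, 9230104L09Rik and LOC666331, and the 3 higher ones were Aplp1, Btbd35f4 and Btbd35f29. Of the 11, Klk1b21 and Klk1b24 were among the fixed marker genes. Aplp1 and Klk1b24 were among the 5 of their direction with the smallest p here, so that choice rested on their values. The others were named after their values were seen. Among all 11 were 3 tissue kallikreins, Bhmt of the methionine cycle and Gsta3 of glutathione conjugation. None of the 11 was called in the model of all 18 libraries, where the spread of all 6 groups enters the error. Why these calls were lost was not tested.

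The tissue kallikreins are serine proteases encoded by a row of closely related genes on chromosome 7, and in mouse testis several are known from Leydig cells. Klk1b24 (chr7:44188236-44192455, plus strand) had 0.44, 0 and 0.53 FPKM in STZ + AOS, against 6.03, 9.20 and 7.27 FPKM in AOS (log2 fold change −2.69, SE 0.48, adjusted p = 0.10, or 0.0039 with the 6 libraries alone). Klk1b21 (chr7:44102328-44106583, plus strand) had 0.34, 0 and 0.25 FPKM against 4.92, 9.28 and 6.21 FPKM (−2.68, SE 0.56, adjusted p = 0.15, or 0.0039 alone). Klk1b27 (chr7:44052290-44056712, plus strand) had 0.43, 0.52 and 0.52 FPKM against 3.91, 6.59 and 4.64 FPKM (−2.0, SE 0.46, adjusted p = 0.15, or 0.0039 alone). The 3 genes were near or at 0 in all STZ + AOS libraries and above 3.9 FPKM in all AOS libraries. In the STZ group Klk1b24 had 0.78, 3.66 and 9.59 FPKM, against 29.64, 23.39 and 13.73 FPKM in control libraries. Their effects without AOS were −2.32, −2.63 and −2.09 for Klk1b24, Klk1b21 and Klk1b27, and the tests of the difference gave adjusted p of 0.70, 0.97 and 0.92.

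Of 14 kallikreins in the table, 12 passed the filter on low values. None was called, 10 of the 12 were lower without overlap (8.96% of all genes tested were), and 0 were higher without overlap. The log2 fold changes lay between −2.69 and −0.20 with a median of −0.56, which stayed negative after quantile normalization (−0.58) and median centring (−0.59). Klk1b22 was listed at 0 in all 3 STZ + AOS libraries and had 0.18, 1.28 and 0.90 FPKM in AOS. The most abundant of those named, Klk1b8, averaged 75.6 ± 1.34 FPKM in STZ + AOS and 96.6 ± 6.03 FPKM in AOS (log2 fold change −0.35, adjusted p = 0.44). The summed level of the 14 genes was 0.0181%, 0.0186% and 0.0196% of the library sum in STZ + AOS, against 0.0256%, 0.0285% and 0.0282% in AOS.

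The windows before the start of Klk1b21, Klk1b24 and Klk1b27 are shown because the 3 genes are closely related and had like values. They lie at chr7:44102042-44102291, chr7:44187986-44188235 and chr7:44052040-44052289, all on the plus strand of GRCm38.p6. Capitals mark AGAACA (or TGTTCT, its other strand), a sequence bound by the androgen receptor as one arm of its element, and TTTAAA, a variant of the TATA box. The matches do not overlap.
Klk1b21 promoter: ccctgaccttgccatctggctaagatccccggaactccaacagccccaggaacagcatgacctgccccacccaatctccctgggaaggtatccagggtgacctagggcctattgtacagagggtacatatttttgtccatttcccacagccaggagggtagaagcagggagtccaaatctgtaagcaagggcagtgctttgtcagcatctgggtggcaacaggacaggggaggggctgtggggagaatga
Klk1b24 promoter: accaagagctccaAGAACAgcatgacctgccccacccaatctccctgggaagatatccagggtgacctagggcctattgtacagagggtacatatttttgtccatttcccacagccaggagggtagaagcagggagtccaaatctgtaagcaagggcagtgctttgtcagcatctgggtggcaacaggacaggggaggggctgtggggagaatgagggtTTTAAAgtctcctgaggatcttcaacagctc
Klk1b27 promoter: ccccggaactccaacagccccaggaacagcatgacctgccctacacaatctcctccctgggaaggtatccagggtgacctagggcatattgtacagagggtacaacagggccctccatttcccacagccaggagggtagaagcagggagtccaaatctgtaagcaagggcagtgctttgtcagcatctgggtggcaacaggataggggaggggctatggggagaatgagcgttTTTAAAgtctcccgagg
AGAACA was found in the Klk1b24 window alone, at 237 bases before the start, and is present in 16.1% of all windows. TTTAAA was found at 31 bases in Klk1b24 and at 17 bases in Klk1b27, and is present in 12.1% of all windows. The RefSeq start of Klk1b21 lies before its GENCODE start, so that its window is shifted against the others. Aligned RefSeq windows of 250 bases before and 50 after the start were identical at 97.7% of bases between Klk1b21 and Klk1b24, 94.5% between Klk1b21 and Klk1b27, and 91.3% between Klk1b24 and Klk1b27. Reads could be assigned to the wrong member of so close a family. These windows lie mostly before the transcripts, whose identity was not measured.

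Leydig cell genes as a list had the lowest median of the cell types examined apart from the kallikreins. Of 28 genes, 0 were called, 16 were lower without overlap (8.96% of all genes were) and 1 was higher without overlap (15.5% of all genes were), with a median log2 fold change of −0.43. The list holds 3 kallikreins, and its median was −0.42 after quantile normalization and −0.46 after median centring. Star, which carries cholesterol into mitochondria, had 18.6, 11.04 and 23.8 FPKM in STZ + AOS, against 30.1, 33.0 and 36.5 FPKM in AOS (−0.92, adjusted p = 0.36). Cyp11a1, which cleaves the cholesterol side chain, had 56.1, 28.2 and 57.2 FPKM against 76.5, 108.6 and 90.0 FPKM (−1.0, adjusted p = 0.48). Cyp17a1, which makes androgens from progestins, had 147.3, 66.98 and 161.3 FPKM against 237.5, 290.3 and 237.2 FPKM (−1.11, adjusted p = 0.39). For these 3 enzymes and carriers each STZ + AOS library lay under each AOS library, and STZ + AOS replicate 2 was the lowest. Hsd3b1, another enzyme gene of the pathway, overlapped, with 44.3, 25.6 and 53.8 FPKM against 62.7, 87.6 and 48.1 FPKM (−0.69, adjusted p = 0.47), as did Insl3 (−0.30, adjusted p = 0.84).

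The summed level of the Leydig list was 0.452%, 0.408% and 0.505% of the library sum in STZ + AOS, against 0.552%, 0.678% and 0.513% in AOS (exact permutation test over samples, two-sided, p = 0.1, the smallest p that 3 against 3 libraries allow, or 0.21 adjusted over 33 summed levels). It was 0.407%, 2.33% and 2.44% in STZ, against 0.791%, 0.709% and 0.769% in control libraries. STZ replicate 1 lay just under the lowest STZ + AOS library and under the other STZ libraries. The permutation test gave the same p of 0.1 for lists of other kinds. Among them were the antioxidant, oxidative phosphorylation, unfolded protein, apoptosis and one-carbon lists. In whole testis, fewer cells of a type and less RNA per cell cannot be told apart.

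**Figure D2:**
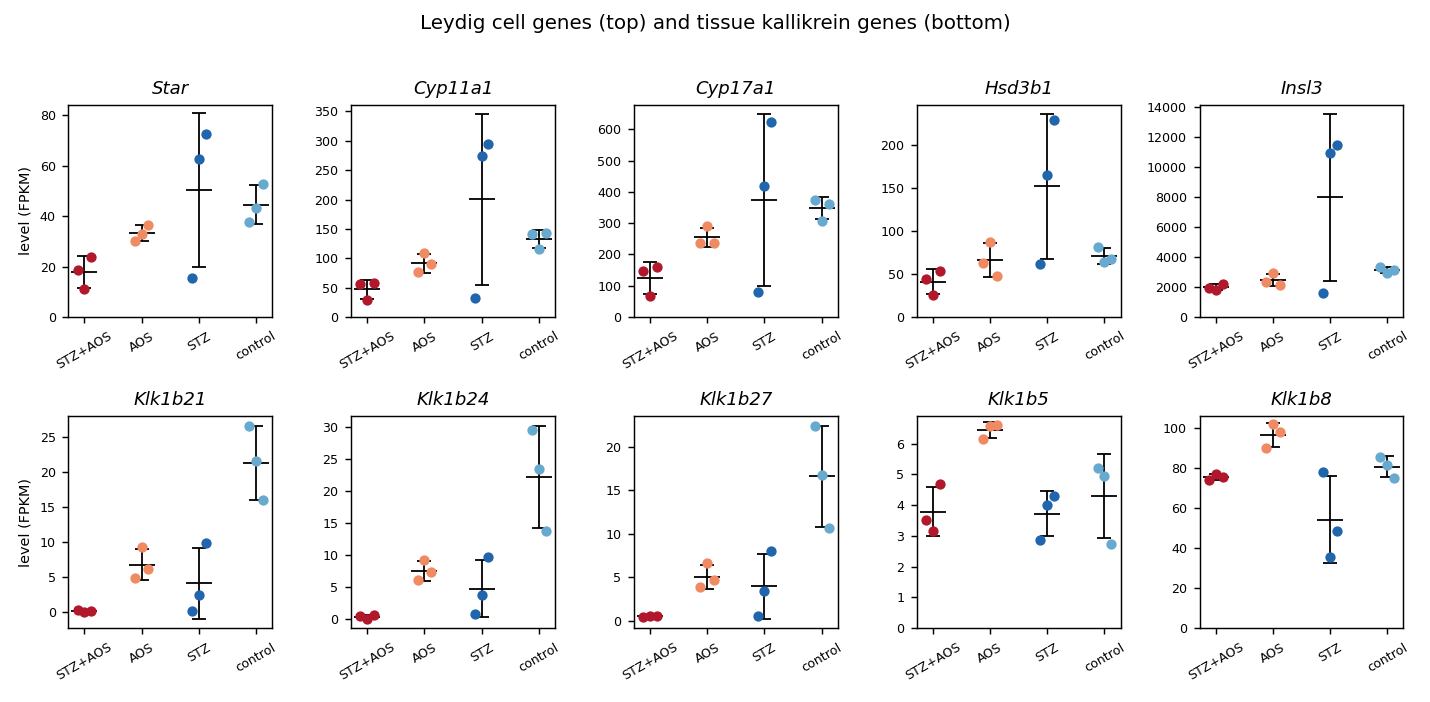
Levels in FPKM (y axes, linear) of 5 Leydig cell genes (top) and 5 kallikrein genes (bottom), by group on the x axis. Points are libraries, and bars show the mean ± SD of 3. STZ + AOS libraries lie under AOS libraries without overlap in 8 of the 10 panels, all but Hsd3b1 and Insl3, and the STZ libraries spread most in the upper row.

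Bhmt, which remethylates homocysteine with betaine, had 13.75, 11.79 and 13.05 FPKM in STZ + AOS, against 46.93, 64.57 and 39.31 FPKM in AOS (log2 fold change −1.86, adjusted p = 0.15, or 0.0077 with the 6 libraries alone). It had 8.70, 40.48 and 40.10 FPKM in STZ, against 65.35, 62.04 and 49.97 FPKM in control libraries. Gsta3, a glutathione transferase gene, had 11.03, 9.49 and 12.5 FPKM in STZ + AOS, against 26.18, 25.21 and 21.72 FPKM in AOS (−1.08, adjusted p = 0.15, or 0.016 alone). Both genes were lower in every STZ + AOS library than in any AOS library, as were 10 of the 12 kallikreins tested and Star, Cyp11a1 and Cyp17a1. Whether these genes were low through the same cells was not tested.

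Genes of germ cells differed little. The late spermatid list, whose members package DNA with protamines and build the tail, had a median of −0.08 over 29 genes. None was called, 14 were lower without overlap (8.96% of all genes) and 1 was higher, and the median was −0.02 after quantile normalization. Prm2, a protamine gene, had 11383, 9939 and 11079 FPKM in STZ + AOS, against 14893, 12890 and 14633 FPKM in AOS (log2 fold change −0.39, adjusted p = 0.40). Prm1, Tnp1 and Tnp2, the other protamine and the transition protein genes, had −0.19, −0.30 and −0.27 (adjusted p between 0.45 and 0.68), with Prm1 at 0.099 after quantile normalization. The summed level of 5 protamine and transition protein genes was 7.72%, 6.95% and 7.46% of the library sum in STZ + AOS, against 8.87%, 8.61% and 8.65% in AOS (difference −1.33 percentage points, exact permutation test, p = 0.1, the smallest possible, or 0.21 adjusted over 33 summed levels). Control libraries had 7.85%, 7.17% and 7.01%, near the STZ + AOS values, and STZ libraries had 6.57%, 3.55% and 4.73%. FPKM values are shares of a library, and the part of these abundant genes in the other differences was not tested.

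Round spermatid genes, of acrosome and early shaping, had a median of −0.03 over 32 genes (0.00 after quantile normalization), with 2 higher and 6 lower without overlap (15.5% of all genes were higher and 8.96% lower). Meiosis genes had a median of 0.08 over 39 genes, with 6 higher and 1 lower without overlap (15.5% of all genes were higher and 8.96% lower). Sycp2, of the synaptonemal complex that pairs chromosomes, averaged 87.1 FPKM in STZ + AOS and 74.2 FPKM in AOS (log2 fold change 0.22, adjusted p = 0.23). Rec8, a meiotic cohesin gene, averaged 34.95 FPKM and 39.97 FPKM in the same order (−0.19, adjusted p = 0.27). Spermatogonial genes had a median of 0.03 over 21 genes (−0.01 after median centring), and the markers Kit, Zbtb16 and Stra8 had 0.00, 0.07 and 0.13. The 14 testis histone genes that passed the filter had a median of −0.04. In none of these lists was a gene called, and their medians lay within 0.08 of 0.

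Sertoli cell genes had small differences, with 18 of 27 positive (57.9% of all genes were) and 9 negative. Of the 27, 0 were called, 11 were higher without overlap (15.5% of all genes were) and 0 were lower, with a median of 0.11 (0.07 after quantile normalization or median centring). Fshr, the receptor for follicle-stimulating hormone, had 1.66, 1.82 and 1.79 FPKM in STZ + AOS, against 0.95, 1.06 and 0.97 FPKM in AOS (log2 fold change 0.47, adjusted p = 0.15). Clu, which encodes the secreted chaperone clusterin, had 560.1, 555.0 and 535.9 FPKM against 474.4, 496.5 and 451.4 FPKM (0.22, adjusted p = 0.29). Wt1, a transcription factor that maintains Sertoli cells, had 12.45, 12.43 and 12.16 FPKM against 10.17, 11.24 and 10.41 FPKM (0.20, adjusted p = 0.23). In FPKM + 1, which understates the change of low genes such as Fshr, the differences were of 1.38-fold, 1.16-fold and 1.15-fold for Fshr, Clu and Wt1. No library overlapped. Sox9, a transcription factor of Sertoli cells, overlapped, with 3.82, 3.44 and 3.45 FPKM in STZ + AOS, against 3.34, 2.64 and 3.67 FPKM in AOS (0.12, adjusted p = 0.74). The summed Sertoli level was 0.216%, 0.217% and 0.215% of the library sum in STZ + AOS, against 0.188%, 0.190% and 0.185% in AOS (exact permutation test, p = 0.1, the smallest possible). This test gave an adjusted p of 0.21 over 33 summed levels, as it did for the meiosis and heat shock lists, among others.

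The tight junction between Sertoli cells closes off the tubule lumen, and its list of 19 genes had a median of 0.11, with 0 called and 9 higher and 1 lower without overlap (15.5% of all genes were higher and 8.96% lower). Vcl, the vinculin gene of the junction's actin anchor, averaged 12.6 FPKM in STZ + AOS and 10.6 FPKM in AOS (log2 fold change 0.23, adjusted p = 0.21), and the scaffold gene Tjp1 averaged 20.2 FPKM and 17.9 FPKM (0.17, adjusted p = 0.23). Cldn5, a claudin also made by endothelium, was the member lower without overlap, at 2.74 FPKM and 3.98 FPKM in the same order (−0.41, adjusted p = 0.19). Myoid, endothelial and matrix genes had medians of 0.02, 0.11 and 0.06 (the myoid median was −0.01 after median centring). The largest of the matrix list was Timp1, an inhibitor of matrix proteases, at 4.29 FPKM in STZ + AOS and 1.59 FPKM in AOS (0.90, adjusted p = 0.32).

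Immune and stress lists had medians on both sides of 0, and no gene in them was called. Macrophage genes had a median of −0.11 over 23 genes (−0.16 to 0.02 when a library was left out), and the markers Cd68, Adgre1 and Lyz2 had −0.20, −0.10 and −0.07. Interferon-induced genes had a median of −0.11 over 19 genes, and among them Ifitm1, given above, stood beside the antigen-processing genes Tap1 (2.06 FPKM in STZ + AOS and 5.01 FPKM in AOS, −0.95, adjusted p = 0.35) and Psmb9 (1.63 FPKM and 4.14 FPKM, −0.90, adjusted p = 0.28). The NF-kB and acute-phase list had a median of 0.22 over 18 genes, with 8 higher and 2 lower without overlap (15.5% of all genes were higher and 8.96% lower). Serpina3n, an acute-phase protease inhibitor gene, had 13.11, 10.86 and 3.27 FPKM in STZ + AOS, against 2.43, 3.14 and 2.37 FPKM in AOS (1.3, adjusted p = 0.19). Lrg1, a leucine-rich acute-phase glycoprotein gene, averaged 4.69 FPKM and 1.93 FPKM (0.94, adjusted p = 0.35), and Vcam1, a vascular adhesion molecule gene, averaged 8.08 FPKM and 19.2 FPKM (−1.12, adjusted p = 0.25). Immediate early genes, switched on within minutes of a stimulus, had a median of 0.19 over 19 genes, with 5 higher and 0 lower without overlap, beside the same shares of all genes. Their leading members after Ctgf were Klf6 (2.72 FPKM in STZ + AOS and 1.81 FPKM in AOS, 0.39, adjusted p = 0.31) and Junb (3.60 FPKM and 2.36 FPKM, 0.46, adjusted p = 0.33). Heat shock genes, unfolded protein response genes and apoptosis genes had medians of 0.07, 0.01 and 0.01 (the last 2 were −0.02 after median centring).

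Energy and lipid genes were set beside these because insulin is known to control some of them. The 34 nuclear genes of oxidative phosphorylation had a median of −0.07, with 0 called and 14 lower and 2 higher without overlap (8.96% of all genes were lower and 15.5% higher). Ndufa1, a complex I subunit, had 18.1, 20.2 and 16.1 FPKM in STZ + AOS, against 26.0, 27.9 and 25.7 FPKM in AOS (−0.53, adjusted p = 0.17). Ribosomal protein genes had a median of −0.02 over 37 genes (0.02 after quantile normalization), glycolysis and glucose genes 0.00 over 32, and insulin and IGF signalling genes 0.01 over 21 (−0.03 after median centring). The fatty acid list, of synthesis, desaturation and oxidation, had a median of −0.06 over 31 genes, with 9 lower and 1 higher without overlap, beside the same shares of all genes. Cd36, a fatty acid transporter gene, had 3.98, 5.44 and 4.56 FPKM in STZ + AOS, against 11.23, 12.18 and 8.77 FPKM in AOS (−1.05, adjusted p = 0.23). The desaturase genes Fads2 and Scd1 averaged 43.1 FPKM and 2.18 FPKM in STZ + AOS, against 72.8 FPKM and 4.41 FPKM in AOS (−0.77, adjusted p = 0.39, and −0.74, adjusted p = 0.43). Fasn, the fatty acid synthase gene, had 10.04, 10.06 and 9.70 FPKM in STZ + AOS, against 9.05, 8.57 and 8.72 FPKM in AOS (0.16, adjusted p = 0.27). Thrsp, the called gene tied to lipid synthesis, was lower in libraries where Fasn was not, and Acaca, the carboxylase gene of the same pathway, overlapped (0.10, adjusted p = 0.59).

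Antioxidant, cholesterol and one-carbon lists had medians of −0.05, −0.10 and −0.07, with 0 genes called. In the antioxidant list, Gstm1 and Gstm2, glutathione transferase genes, averaged 304.1 FPKM and 196.8 FPKM in STZ + AOS, against 480.9 FPKM and 283.1 FPKM in AOS (−0.65, adjusted p = 0.28, and −0.51, adjusted p = 0.39). Markers of other tissues were looked at for the tissue around the testis. Of 5 blood genes tested, 2 were higher without overlap (15.5% of all genes were). The haemoglobin gene Hba-a1 had 152.7, 192.0 and 115.2 FPKM, against 59.2, 89.8 and 53.0 FPKM in AOS (1.18, adjusted p = 0.38), and the red cell gene Alas2 had 11.43, 13.68 and 15.26 FPKM, against 9.62, 8.78 and 9.21 FPKM (0.49, adjusted p = 0.15). The summed level of the 8 blood genes in the table was 0.0363%, 0.0449% and 0.0308% of the library sum in STZ + AOS, against 0.0200%, 0.0246% and 0.0195% in AOS (exact permutation test, p = 0.1, or 0.21 adjusted over 33 summed levels). The haemoglobin gene Hbb-bs lay between 0 and 2.89 FPKM in STZ + AOS and between 0.14 and 3.98 FPKM in AOS. The part of blood in the other differences was not tested. The 18 epididymal genes summed to between 0.0565% and 0.0590% in STZ + AOS and between 0.0536% and 0.0639% in AOS, and the 13 fat genes to between 0.00471% and 0.00640% and between 0.00430% and 0.00929%.

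**Figure D3:**
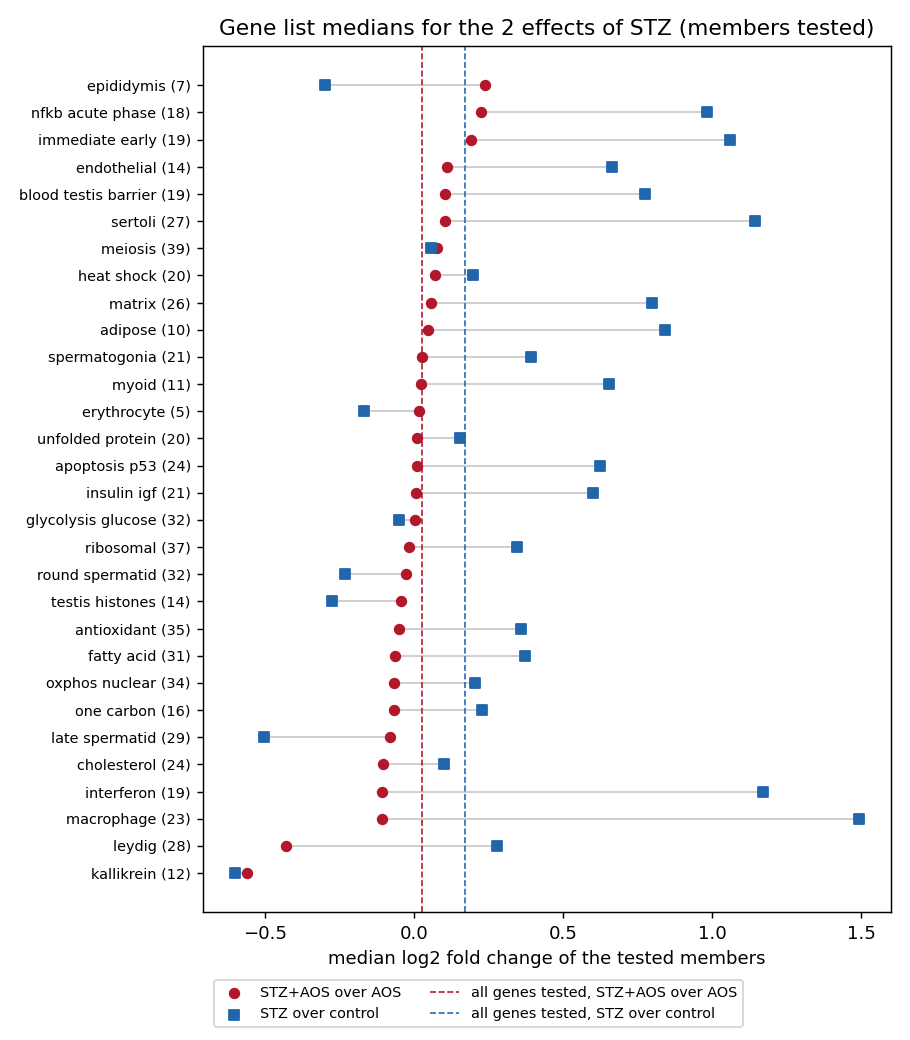
Median log2 fold change (x axis) of the members tested of each gene list (y axis, number tested in parentheses) for STZ + AOS over AOS (circles) and STZ over control (squares). Dashed lines mark the medians of all 14164 genes, 0.03 and 0.17. The circles of most lists lie near the dashed line of all genes, with the Leydig (−0.43) and kallikrein (−0.56) lists farthest to the left.

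The effect of STZ under AOS was then set beside its effect without AOS. The 2 effects share no libraries. Between STZ and control testes, 7823 genes were called (55.2%), 6118 higher (43.2%) and 1705 lower (12%), and the log2 fold changes had an SD of 0.453 over genes, against 0.185 under AOS. This split depends on the scaling: it was 3156 higher and 4093 lower after quantile normalization and 2678 higher and 6119 lower after median centring, as the median of all genes was 0.17 as deposited, −0.06 and −0.17. Changes past 1 on the log2 scale numbered 824 higher and 31 lower without AOS, against 14 higher and 26 lower under AOS. Without STZ replicate 1, the STZ library nearest to the other groups, 8797 genes were called. The model gives all groups 1 spread per gene, whereas the median SD of log2 values was 0.160 in STZ and 0.079 to 0.089 elsewhere. The SE of STZ minus control, and of the difference tested below, may therefore be too small, and their counts and p-values too strong.

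The difference between the 2 effects was tested gene by gene. It was called for 4984 genes (35.2%), with 867 higher (6.12%) and 4117 lower (29.1%) under AOS than without (2260 and 1963 after quantile normalization, 4190 and 1860 after median centring). Of these genes, 4727 were also called between STZ and control. Without STZ replicate 1 the difference was called for 7042 genes, and without STZ replicate 3 for 3400. Of the 6118 genes higher in STZ than in control, 3997 had an effect under AOS that was lower by this test, and of the 1705 genes lower in STZ, 729 had one that was higher. The counts of 4727, 3997 and 729 follow in part from this choice of genes. The test of the difference holds the same STZ and control libraries, with the opposite sign.

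Genes higher in STZ than in control were more often positive than negative under AOS, at a smaller size. Of the 6118, 4104 had a positive log2 fold change under AOS (67.1%, against 57.9% of all genes tested), with a median of 0.06 under AOS and 0.54 without. Of the 813 higher by 1 or more without AOS, 643 (79.1%) were positive under AOS, with medians of 0.14 and 1.22. Of the 1705 lower in STZ, 950 (55.7%) were negative under AOS, against 5956 of all 14164 genes, with medians of −0.02 and −0.27. These signs were counted as deposited and not after rescaling. The median of all genes under AOS was 0.026 as deposited and −0.008 after median centring. Across all 14164 genes the 2 effects had a Spearman correlation of 0.22 and a Pearson correlation of 0.24, given as a description, since genes are not independent and the spread was estimated in common.

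**Figure D4:**
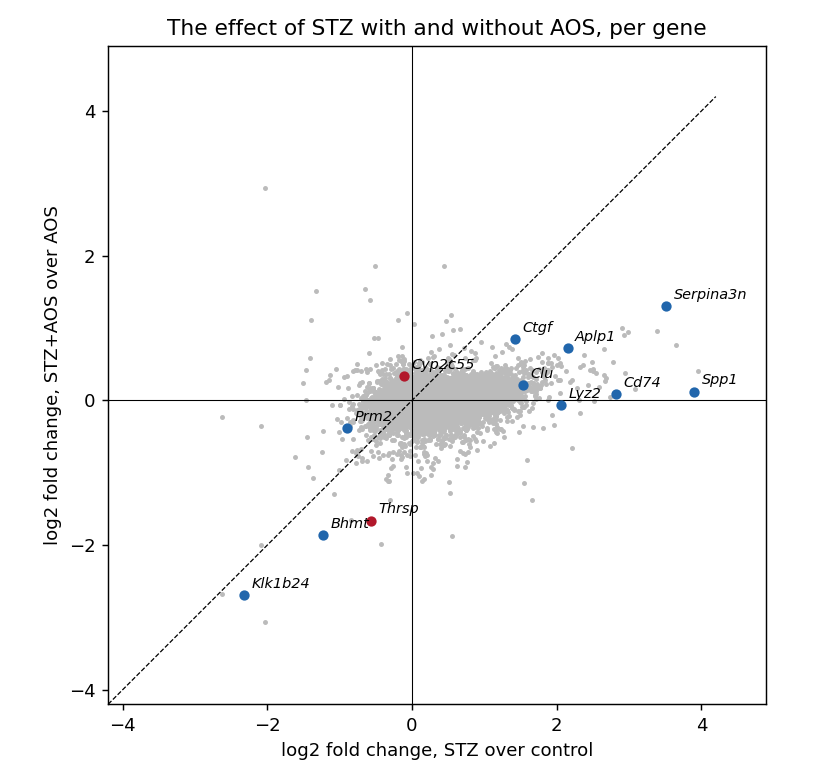
Log2 fold change per gene for STZ + AOS over AOS (y axis) against STZ over control (x axis), over 14164 genes. Red points are the 2 genes called under AOS, blue points other genes named in the text, and the dashed line marks equal effects. Klk1b24 lies near the dashed line at −2.69 and −2.32, whereas Spp1 lies near the x axis at 0.12 and 3.90.

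Several macrophage genes had large differences between the effects. Spp1, the osteopontin gene of activated macrophages, had 2.79, 1.48 and 2.66 FPKM in STZ + AOS and 2.82, 2.06 and 1.28 FPKM in AOS, against means of 56.3 ± 26.0 FPKM in STZ testes and 2.60 ± 0.31 FPKM in control testes (SD, n = 3 each). The log2 fold changes were 0.12 and 3.90, and the difference was −3.78 (adjusted p = 3e-05). Lyz2, the macrophage lysozyme gene, had log2 fold changes of −0.07 and 2.07 (test of the difference −2.13, adjusted p = 5.9e-05), and Cd74, the class II invariant chain gene, 0.09 and 2.82 (−2.73, adjusted p = 0.00041). Of 23 macrophage genes tested, 19 had a lower effect under AOS than without, and of 19 interferon genes 17 did (29.1% of all genes did). These counts were 17 and 11 after quantile normalization and 18 and 13 after median centring, when 1963 and 1860 of all genes were lower. H2-Eb1, a class II gene of the macrophage list, had no called difference (−0.37, adjusted p = 0.52).

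Sertoli cell genes also had lower effects under AOS than without. Clu averaged 550.3 ± 12.7 FPKM in STZ + AOS and 474.1 ± 22.5 FPKM in AOS, and 1409 ± 177 FPKM in STZ testes and 483.7 ± 29.3 FPKM in control testes, so that the log2 fold changes were 0.22 and 1.53 (test of the difference −1.32, adjusted p = 4.7e-06). Wt1, Sox9 and the tight junction gene Cldn11 had differences between the effects of −1.0, −1.26 and −1.48 (adjusted p = 4.9e-06, 0.00023 and 3.6e-06). The difference was called lower for 26 of 27 Sertoli genes (29.1% of all genes were). This count was 21 after quantile normalization and 22 after median centring, when 1963 and 1860 of all 14164 genes were lower. For the late spermatid list, 10 of 29 had a higher effect under AOS (6.12% of all genes did) and 0 a lower one, with medians of −0.08 under AOS and −0.50 without. After quantile normalization this count was 5 of 29, near the share of all genes (2260 of 14164 were higher). After median centring it was 23, when 4190 of all genes were higher. The median without AOS was −0.27 and −0.84 in the same order.

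None of 12 kallikreins had a called difference between the effects, against 35.2% of all genes tested. Of the 12, 1 was higher under AOS after quantile normalization and 2 after median centring. The list medians were −0.56 under AOS and −0.60 without. The median without AOS was −0.83 after quantile normalization and −0.94 after median centring. The p of a difference that misses the threshold does not show that the effects were equal: the SE of the difference for Klk1b24 was 0.68 on the log2 scale. Of 28 Leydig genes, 10 had a lower effect under AOS (29.1% of all genes did) and 0 a higher one (6.12% of all genes did). These counts were 9 and 1 after quantile normalization, when 1963 of all 14164 genes were lower and 2260 higher. They were 6 and 1 after median centring, when 1860 of all genes were lower and 4190 higher. Hsd3b1 was among the 10 lower Leydig genes (test of the difference −1.59, adjusted p = 0.032, or 0.051 after median centring), whereas Star, Cyp17a1 and Insl3 did not pass (adjusted p = 0.26, 0.43 and 0.20).

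The 5 genes with the largest called differences on the lower side, among those reaching a mean of 1 FPKM in a group, were Spp1, Bpifa2, Gpnmb, 4930486L24Rik and Ly6d. Bpifa2, a secreted salivary protein gene, averaged 0.53 FPKM in STZ + AOS and 0.08 FPKM in AOS, against 18.3 FPKM in STZ testes and 0.11 FPKM in control testes (difference −3.54, adjusted p = 6.6e-05). Gpnmb, a glycoprotein gene of lipid-laden macrophages, averaged 0.30 FPKM and 0.17 FPKM under AOS, against 12.3 FPKM and 0.42 FPKM without (−2.93, adjusted p = 0.00022). On the higher side the 5 were Gm21794, Gm20894, Serpini2, Hist1h2aa and Tubb6, with differences between 1.03 and 2.0. Gm21794 and Gm20894 are annotated on the Y chromosome, which carries many near-identical copies, so their values are uncertain. Tubb6, a beta tubulin gene, had 19.10, 15.95 and 22.67 FPKM in STZ + AOS, against 6.96, 7.81 and 11.69 FPKM in AOS (1.06, adjusted p = 0.15), whereas STZ and control libraries averaged 16.2 FPKM and 15.7 FPKM (0.03, test of the difference 1.03, adjusted p = 0.033).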

How the data were processed

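RNA from whole testis was sequenced in 18 libraries, 3 from each of 6 groups. The deposited table holds 1 value per gene and library with no unit in its header. The authors' values were taken as FPKM because the step between the lowest values of a gene fell with transcript length (Spearman −0.586 over 148 low genes). RPKM, or TPM with genes left out, cannot be told apart from this. The submitters' processing notes name Bowtie 0.12.2 and the build mm10 without a role for either, and no counter, annotation or strand setting is named in the sources. Without strand, overlapping genes cannot be told apart.

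Tests used limma 3.58.1 in R 4.3.3 (limma-trend on log2(FPKM + 1)) for 14164 of 20985 genes, those that reached 1 FPKM in 3 or more of the 18 libraries. The model had a mean for each of the 6 groups, fitted over all 18 libraries, and no replicate block. Contrasts were STZ + AOS minus AOS, STZ minus control, and the first minus the second, each two-sided with Benjamini-Hochberg adjustment at 0.05. The model was also run on simulated data. Summed levels of lists were compared by an exact permutation test over libraries. Precision is set by 3 libraries a group, since the depth in reads is unknown. Alternatives were a model of only the compared libraries, a pseudocount of 0.1, other filters, quantile normalization, median centring, a replicate block and leaving out each library.

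Named genes were the called genes, the 5 of each direction with the smallest p, the 5 largest called differences between the effects in each direction, and 27 marker genes. Other genes were named after their values were seen: Klk1b27, Klk1b22, Klk1b8, Bhmt, Gsta3, Cyp11a1, the 6-library calls, and the members given as leading ones in each list. The members and the 32 lists were chosen with earlier results of these data known. Coordinates come from GENCODE M21 (GRCm38, which is mm10), where 96.5% of symbols matched, and promoters from RefSeq. The table holds 37 symbols turned into dates or numbers by a spreadsheet, which were not named.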

Additional observations from a re-analysis of the deposited data

Results flagged for a closer look

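The effect of STZ under AOS differed from its effect without AOS, by the test of the difference itself, for 4984 genes. The following differences (log2, the effect under AOS minus that without) are those of genes named by rule. On the lower side, macrophage and immune genes had −3.78 (Spp1), −2.93 (Gpnmb), −2.73 (Cd74), −2.13 (Lyz2), −1.69 (Cd68) and −0.58 (Ifitm1). Sertoli genes had −1.48 (Cldn11), −1.32 (Clu), −1.26 (Sox9) and −1.0 (Wt1). Spermatogonial genes had −1.12 (Stra8), −0.74 (Kit) and −0.48 (Zbtb16), and the Leydig enzyme gene Hsd3b1 had −1.59. All values are as deposited, without rescaling: the median difference of the 21 spermatogonial genes was −0.48 as deposited, −0.19 after quantile normalization and −0.17 after median centring. Other genes had −3.54 (Bpifa2), −2.88 (4930486L24Rik), −2.86 (Ly6d), −1.43 (Aplp1), −1.09 (Thrsp), −0.53 (Nrep) and −0.52 (Tgfbr3l). On the higher side were Gm21794 (2.0), Gm20894 (1.33), Serpini2 (1.18), Hist1h2aa (1.04), Tubb6 (1.03), Plekhd1 (0.49) and Cyp2c55 (0.45). The STZ libraries are spread widely, and without STZ replicate 1, 2 or 3 the count was 7042, 3944 and 3400 genes.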

How the results depend on the processing

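Between STZ + AOS and AOS, the count of 2 called genes (1781 at an unadjusted p under 0.05) was 11 with only the 6 libraries in the model, 4 without the filter on low values, 1 after quantile normalization, and 0 to 1 when a library was left out. It stayed at 2 with a pseudocount of 0.1, with a filter within the 6 libraries and after median centring, where Tgfbr3l took the place of Cyp2c55. Of list members, 0 were called under all alternatives but the 6 libraries alone, where 4 were. Same-numbered libraries did not deviate together (r of −0.04, −0.09 and 0.02), and with the replicate number as a block 0 genes were called by limma (1737 at an unadjusted p under 0.05), against 4875 for the difference between the effects. Between STZ and control, 5132 genes were called with only these libraries in the model and 5929 to 8797 when a library was left out. For the difference between the effects, 3400 to 7042 were called. The share of protamine and transition protein genes differed by −1.50 to −1.12 percentage points when a library was left out, that of Leydig genes by −0.160 to −0.0774 and that of Sertoli genes by 0.0273 to 0.0297.

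Log2 fold changes under AOS that changed sign were all uncalled. Kit was at −0.00091 with a pseudocount of 0.1, −0.026 after quantile normalization and −0.034 after median centring. Prm1 was at 0.099 and Tnp1 at 0 after quantile normalization. With a library left out, Kit ranged from −0.084 to 0.099, Cd74 from −0.117 to 0.481, Stra8 from −0.021 to 0.274, Zbtb16 from −0.042 to 0.143, Lyz2 from −0.250 to 0.126, Adgre1 from −0.203 to 0.0093 and Spp1 from −0.072 to 0.318. The calls of the difference for Gm21794, Gm20894, Serpini2, Hist1h2aa, Tubb6, Ly6d, Hsd3b1, Tgfbr3l, Zbtb16 and Plekhd1 were lost when any of several libraries was left out. Quantile normalization and median centring ended those for Ifitm1 (adjusted p = 0.33 and 0.20), Kit (0.11 and 0.078), Nrep (0.17 and 0.15), Tgfbr3l (0.47 and 0.29), Thrsp (0.055 and 0.053) and Zbtb16 (0.35 and 0.36). The calls for Spp1, Bpifa2, Gpnmb, 4930486L24Rik, Cd68, Cd74, Lyz2, Aplp1, Cldn11, Clu, Sox9, Wt1, Stra8 and Cyp2c55 held in all that were run. The causes were not tested. With 3 libraries a group, the median SE of a log2 fold change under AOS was 0.099, and differences of that size were not detectable.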

Other observations

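A pair of genes of 1 family on the X chromosome, Btbd35f3 and Btbd35f4, separated the groups in opposite directions. Btbd35f3 had 0, 0.01 and 0 FPKM in STZ + AOS, against 2.88, 3.50 and 2.62 FPKM in AOS, and Btbd35f4 had 2.91, 3.24 and 1.97 FPKM in STZ + AOS, against 0.03, 0 and 0 FPKM in AOS. Outside these groups the 2 genes also took turns. Btbd35f3 had 0, 2.37 and 0 FPKM in STZ and 0, 2.48 and 1.35 FPKM in control libraries, and Btbd35f4 had 2.76, 0 and 2.30 FPKM in STZ and 3.55, 0.08 and 0 FPKM in control libraries, so that each library with one above 1 FPKM had the other under 0.1 FPKM in these 12 libraries. Of the 6 transplant libraries, 1 held both, at 0.95 FPKM (Btbd35f3) and 2.27 FPKM (Btbd35f4). Neither was called in the model of all 18 libraries (limma adjusted p = 0.15 and 0.23). The mice were outbred, and whether the libraries differ by genotype was not tested.

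The protein-coding gene 9230104L09Rik had the largest log2 fold change to the lower side, with 0.80, 1.60 and 2.05 FPKM in STZ + AOS, against 19.92, 17.73 and 20.23 FPKM in AOS (−3.06, limma adjusted p = 0.16). In STZ it had 1.03, 0.85 and 7.55 FPKM, against 11.41, 5.15 and 27.50 FPKM in control libraries.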
